A study of Mus musculus with 17 samples.

Results

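Mouse embryonic stem cells that had spent 4 days in the medium LFAI were compared with cells that had spent 35 h in it, in the lines R1 and CGR8. The comparison takes 4 of the 17 libraries of the series, 1 of each line at each time, which are all the LFAI libraries in which both lines were sampled. LFAI is serum-free N2B27 medium with LIF, FGF2 at 12 ng/ml, human Activin A at 20 ng/ml and IWP2 at 2 µM, an inhibitor of the secretion of Wnt ligands. All 4 cultures came from LIF with 2i, a pair of inhibitors of MEK (PD325901) and of GSK3 (CHIR99021), and all grew on gelatin with Cultrex basement membrane extract. At 35 h, R1 was at passage 31 with 9 passages in 2i, and CGR8 was at passage 30 with 7. At 4 days, R1 was at passage 26 with 3 passages in 2i, and CGR8 was at passage 33 with 9. Each line gave 1 culture per time, the lines are the only replicates (n = 2 per time), and passage cannot be told apart from time. The 4 libraries of both lines in L2i (LIF with 2i) and in LIM (LIF, PD325901 and IWP2) entered the fit to help estimate the spread. They also entered the choice of tested genes, the scaling and the line effect, so they can shift the folds. With only the 4 libraries compared, 14339 genes were tested in place of 15525. A time course of R1, with day 0 in L2i and days 1 to 4 in LFAI (1 library a day), had another coating and sequencing protocol and was used as values without a test.

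As background, naive embryonic stem cells resemble the epiblast before implantation and are held in that state by LIF, which signals through STAT3, together with a block of MEK. When the block is lifted and FGF2 and Activin A are given, the cells move toward the epiblast after implantation. They shut down the naive transcription factors, take up de novo DNA methyltransferases, and polarise into rosettes that open a lumen. The general pluripotency factor Oct4, the product of Pou5f1, is known to stay on in naive and primed cells alike.

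The 35 h libraries held 15.9 M (R1) and 15.4 M (CGR8) reads counted in genes, and the 4-day libraries 15.5 M and 15.3 M. Expression of the tested genes correlated between the lines at 0.975 at 35 h and 0.983 at 4 days, across genes, which are not independent replicates. Reads without a gene feature were 3.50% and 3.95% of all at 35 h against 2.28% and 2.34% at 4 days, and counts in mitochondrially encoded genes were 1.54% and 1.40% against 1.05% and 1.15%. These shares moved with time, and their part in the results was not tested. Markers of pluripotent stem cells (6 genes) summed to 4285 and 3948 CPM (counts scaled to the library's size, with TMM factors) at 35 h and to 3986 and 4067 at 4 days, so the labelled cell type's markers were present in all 4 libraries. The sum hides moves of its members: in the test described below 1 of the 6 was higher and 3 were lower at 4 days (median log2 fold -0.50).

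In these bulk samples fewer cells of a type and less RNA per cell cannot be told apart, which holds for every result. Of 15525 genes tested, 3004 were higher (19.3%) and 3175 lower (20.5%) after 4 days than after 35 h, 39.8% in all. The test was edgeR's quasi-likelihood test with the line as a block, taken as two-sided, with genes counted as called where the Benjamini-Hochberg adjusted p was under 0.05. At an unadjusted p under 0.05 there were 7560 genes (48.7%). Many changes were large. Among the called genes, 1065 rose and 1397 fell by a log2 fold of at least 2, and 196 rose and 446 fell by at least 5, while the median over all tested genes was 0.01. Under 0.5 CPM in both 35 h libraries and at 5 CPM or more in both 4-day libraries were 69 genes, and 88 showed the opposite. Values of both lines did not overlap between the times for 72.3% of the tested genes. When each of the 8 libraries was left out in turn, 1250 of the higher and 1719 of the lower genes were called every time. Without the CGR8 4-day library the higher count was 1813, without R1 at 35 h 1738 and without CGR8 at 35 h 1702, and the lower count was 2119 without the CGR8 4-day library and 2118 without CGR8 at 35 h. Against a log2 fold of 1 in place of 0, 1013 genes were higher and 1377 lower. The counts of every gene list below are to be read beside these shares of all tested genes, 19.3% higher and 20.5% lower. Pairs of CPM values are given in the order R1 and CGR8. Errors are the SE of the fitted log2 fold, whose spread is pooled over genes and groups, so it can be smaller than the gap between the lines.

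**Figure D1:**
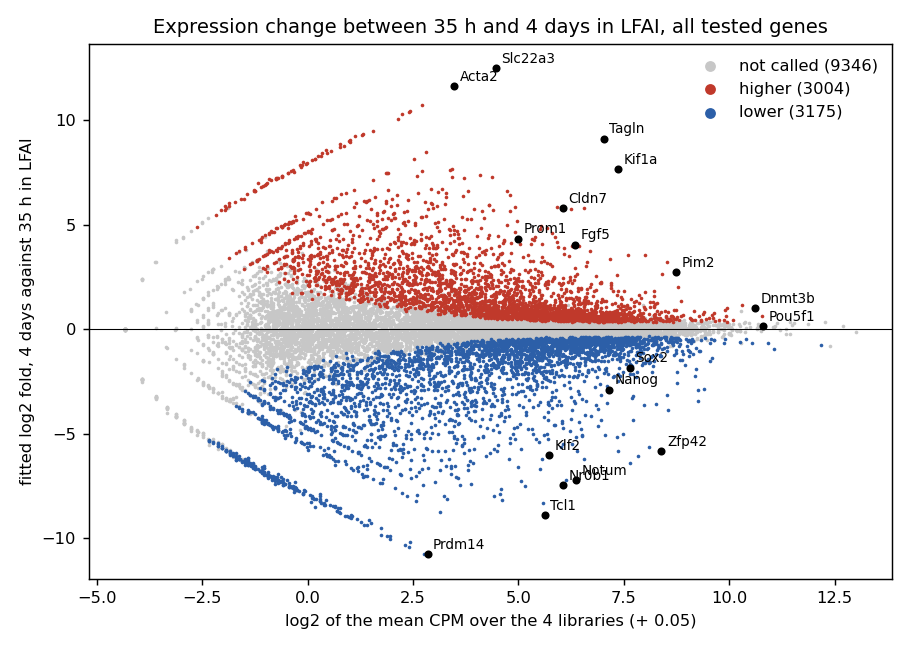
Each point is 1 of the 15525 tested genes, placed by the log2 of its mean CPM over the 4 libraries (plus 0.05) and its fitted log2 fold of 4 days against 35 h. The 3004 genes called higher are red, the 3175 called lower are blue and the others grey, and named genes such as Zfp42 (-5.84) and Tagln (9.12) lie far from 0 while Pou5f1 (0.13) lies near it.

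The 10 largest rises were taken among genes called in every fit that left out 1 library, and 3 of them, Tagln, Acta2 and Acta1, encode actins or an actin-binding protein. Tagln, which encodes transgelin, an actin-binding protein of smooth muscle, was at 0.979 and 0.0649 CPM in R1 and CGR8 at 35 h and at 342 and 176 CPM at 4 days, a rise of 556-fold (log2 9.12 ± 0.42, adjusted p = 1.4e-06). Acta2, smooth muscle actin, had no counts at 35 h and 29.7 and 14.8 CPM at 4 days, at least 229-fold higher. Acta1, skeletal muscle actin, had 1 count at 35 h and reached 16.2 and 11.6 CPM, a ratio of 428 with a 95% counting interval from 76.4 to 16930. None of these 3 genes had overlapping values between the times, which picking the largest rises seen in both lines nearly fixes. Of all tested genes, 72.3% did not overlap. In the R1 time course Tagln reached 4.29 CPM by day 4 and Acta2 0.0727 CPM, far under the 4-day libraries of both lines. Slc22a3, a transporter of organic cations, rose from no counts to 31.5 and 56.2 CPM, at least 447-fold. From no counts at 35 h rose also Mcoln3, a lysosomal cation channel (at least 132-fold), Stmn4, a stathmin (110), Macc1 (108), the integrin gene Itgb8 (95.9) and the ligand gene Wnt4 (59.8). Bounds are taken over a floor of 3 counts in both libraries of the lower group, and bounds and intervals cover counting error only. Macc1 was not called by DESeq2 (log2 9.87). The fitted log2 folds of genes near 0 counts moved with single libraries left out. Without R1 at 4 days they were 9.85 for Tagln, 12.27 for Acta2, 10.95 for Itgb8, 8.89 for Macc1 and 9.77 for Stmn4. Without CGR8 at 4 days they were 12.38 for Macc1 and 11.11 for Stmn4. Without R1 at 35 h they were 10.97 for Tagln, 10.67 for Acta2, 10.41 for Acta1, 9.70 for Macc1 and 7.98 for Wnt4, and without CGR8 at 35 h 10.25 for Wnt4. The values with all libraries were 9.12 (Tagln), 11.63 (Acta2), 8.49 (Acta1), 10.32 (Itgb8), 10.38 (Macc1), 10.43 (Stmn4) and 9.49 (Wnt4).

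The largest falls included genes of the naive state and a cytokine gene of the LIF family. Prdm14, a repressor that keeps the naive state, went from 6.98 and 21.6 CPM to no counts in either line, at least 149-fold lower. Crxos, a homeobox gene of naive cells, went from 10.4 and 16.6 CPM to no counts (at least 140-fold lower). Osm, which encodes oncostatin M, a cytokine of the LIF family, went from 9.2 and 10.4 CPM to no counts (at least 102-fold lower). Tcl1, a co-activator of Akt, fell 475-fold from 68.7 and 127 CPM to 0.315 and 0.0653 CPM. The other large falls were in Lrrc31 (at least 110-fold), Sytl3 (79.8), Klk1 (68.3), Usp17la (57.8), the GTPase gene Rac2 (54.1) and Vwa3b, for which 1 count at 4 days gave a ratio of 542 (95% counting interval 96.8 to 21440). Usp17la belongs to a family of near-identical copies, so its counts are uncertain. These 10 genes too were taken among genes called without each library in turn. Their values did not overlap between the times, which picking the largest falls seen in both lines nearly fixes. Of all tested genes, 72.3% did not overlap. Some fitted log2 folds moved. That of Tcl1 (-8.89) was -10.59 without R1 and -7.96 without CGR8 at 4 days, that of Rac2 (-9.37) -10.1 and -8.0, and that of Usp17la (-9.28) -10.05 and -7.80, with -8.33 without CGR8 at 35 h. Without CGR8 at 4 days Klk1 (-9.86) was at -9.16 and Vwa3b (-8.77) at -10.71. Without R1 at 35 h Sytl3 (-10.04) was at -9.36, and without CGR8 at 35 h it was at -10.76 and Prdm14 (-10.78) at -10.13.

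Naive pluripotency factors fell as a whole. All 20 of 20 listed genes were lower at 4 days and none was higher, at a median log2 fold of -5.94. Summed over the list, R1 and CGR8 held 4169 and 5421 CPM at 35 h and 307 and 315 CPM at 4 days. Each of the 20 was also called without each of the 8 libraries in turn. Zfp42, also called Rex1, the classical marker of naive cells, was at 637 and 684 CPM at 35 h and at 12.5 and 10.6 CPM at 4 days (57.4-fold lower, log2 -5.84 ± 0.18, adjusted p = 2.5e-07). In L2i it was at 885 and 696 CPM, so at 35 h R1 lay under its value in the starting medium and CGR8 was close to it. Both 4-day libraries were far under both 35 h libraries. The stretch before the start of Zfp42 is shown because it holds the octamer ATTTGCAT, the letters that Oct proteins are known to bind, in capitals 186 bases before the start. It lies at chr8:43307010-43307259 on the minus strand, 250 bases upstream of the start, 5′ to 3′, as given for GRCm38.p6 by RefSeq.
Zfp42 promoter: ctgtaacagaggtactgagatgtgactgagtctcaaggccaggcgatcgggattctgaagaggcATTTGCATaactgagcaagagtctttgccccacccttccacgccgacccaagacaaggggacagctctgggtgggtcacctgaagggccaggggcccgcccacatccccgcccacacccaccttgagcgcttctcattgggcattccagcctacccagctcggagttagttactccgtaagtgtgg
The octamer on either strand stood in 1.34% of the 11260 promoters of this length among tested genes, in 1.43% of those of genes called higher and in 1.81% of those called lower. A match is a description of letters and not of binding.

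The other circuit members differed in how far they fell. Esrrb, an orphan nuclear receptor of the circuit, went from 340 and 555 CPM to 8.37 and 4.44 CPM (68-fold, adjusted p = 3.7e-06). Klf2 fell 65.8-fold from 90.9 and 117 to 1.45 and 1.7 CPM and Klf4 37.6-fold from 44.5 and 121 to 2.01 and 2.03 CPM. Klf5, the third Krüppel-like factor of the circuit, went from 70.8 and 106 to 28.9 and 16.5 CPM, which was 3.82-fold (log2 -1.93 ± 0.29, adjusted p = 0.00073). None of these Klf genes had overlapping values between the times, as was so for 72.3% of all tested genes. Tfcp2l1, a target of LIF, fell by 4.80 on the log2 scale from 93.3 and 251 to 7.62 and 3.79 CPM, and Tbx3, a T-box factor, by 7.67 from 13.6 and 82.7 to 0.315 and 0.0653 CPM. For both of these the CGR8 library was the higher one at 35 h and the lower one at 4 days. On the log2 scale the fold of Tbx3 was -9.61 without R1 and -6.37 without CGR8 at 4 days, and -8.53 without R1 and -6.29 without CGR8 at 35 h, while for Tfcp2l1 these values were -5.70, -4.09, -5.51 and -4.02. Without R1 at 4 days that of Esrrb was -6.80 and that of Klf5 -2.58. Nanog, a homeobox factor of the circuit, was at 180 and 325 CPM at 35 h and 27 and 40.1 CPM at 4 days (7.41-fold lower, adjusted p = 3.2e-05). Of the listed markers, Nr0b1 fell 178-fold, Morc1 84.6-fold, Fbxo15 32.9-fold and Dppa5a 10.8-fold.

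**Figure D2:**
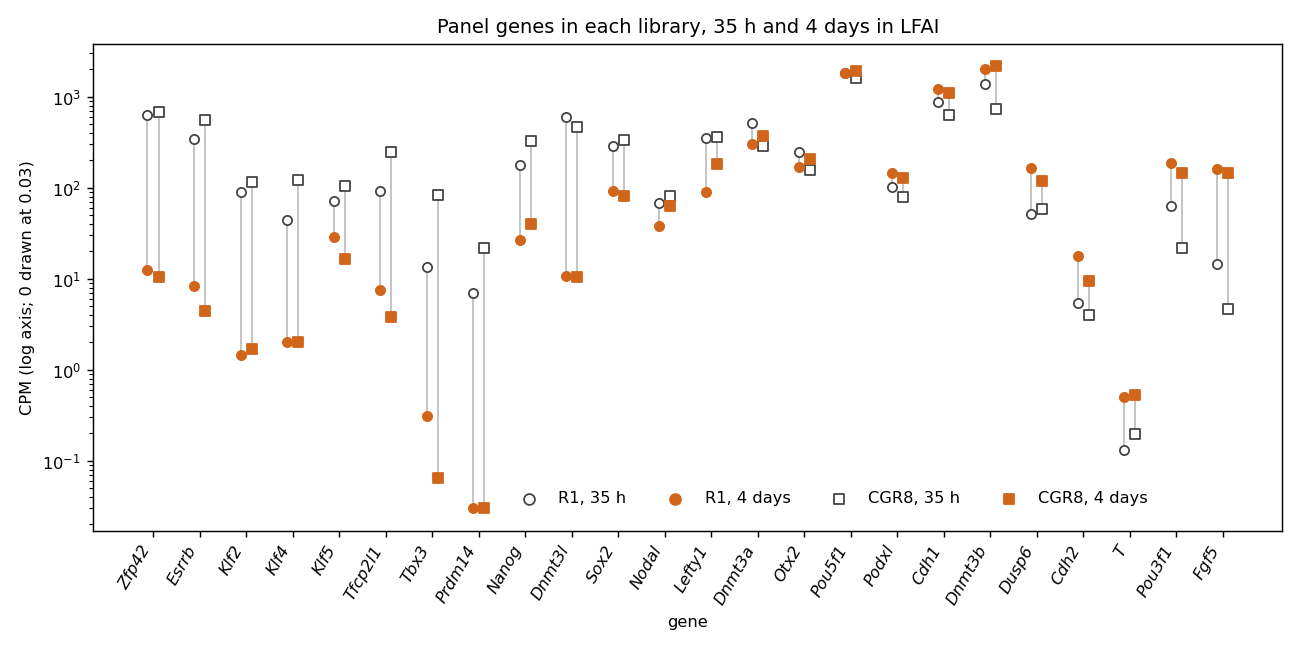
The CPM of 24 panel genes (log axis, 0 drawn at 0.03) is plotted for each of the 4 libraries, R1 as circles and CGR8 as squares, open at 35 h and filled at 4 days. Naive factors on the left drop in both lines, Pou5f1 is between 1610 and 1926 CPM in all libraries, and Fgf5 on the right rises from 14.5 and 4.61 to 159 and 146 CPM.

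Core pluripotency factors, which naive and primed cells share, were more often lower than higher. Of 12 listed, 1 was higher, 7 were lower and 4 were not called, with a median of -0.87. In the R1 time course 2 of these 7 lower genes fell from day 1 to day 4, and all 7 from day 2. The list's median log2 change there was 0.41 from day 1 and -0.40 from day 2. Pou5f1 was at 1809 and 1610 CPM at 35 h and 1810 and 1926 CPM at 4 days and was not called (log2 0.13 ± 0.16, adjusted p = 0.54). Its partner Sox2 fell 3.56-fold, from 290 and 333 CPM to 92.3 and 81.9 CPM (log2 -1.83 ± 0.15, adjusted p = 2.4e-05), without overlap. Dppa2, which with Dppa4 binds CpG-rich promoters in pluripotent cells, fell 12.1-fold from 98.8 and 92.2 to 7.62 and 8.17 CPM, and Dppa4 fell 2.35-fold. The zinc finger genes Sall4 (1.65-fold) and Zfp281 (2.01-fold) and the Nodal co-receptor gene Tdgf1 (2.32-fold) were lower. Lin28a, an RNA-binding protein that blocks let-7, was higher by a log2 fold of 0.81 ± 0.20, a call lost without the CGR8 4-day (0.61) or the CGR8 35 h library (0.64).

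Early epiblast genes did not move as 1 block. Of 18 listed, 8 were higher, 2 lower and 8 not called, at a median of 0.71. Fgf5, the growth factor used to mark the epiblast after implantation, went from 14.5 and 4.61 CPM to 159 and 146 CPM (16.6-fold, adjusted p = 9.2e-05). The 35 h level was lower in CGR8 than in R1, and both 4-day libraries were alike and above both. Without R1 at 35 h the log2 fold of Fgf5 was 5.12 and without CGR8 at 35 h 3.30. Pou3f1, a POU factor also called Oct6, rose 4.12-fold from 62.5 and 21.8 to 188 and 144 CPM (log2 2.04 ± 0.39; 2.90 without R1 and 1.39 without CGR8 at 35 h). Pim2, a survival kinase, rose 6.61-fold from 141 and 80.5 to 611 and 877 CPM (log2 2.72, or 3.36 without R1 at 35 h), and Sall2 rose 3.11-fold from 110 and 53.4 to 243 and 245 CPM. Otx2, the homeobox factor that enters the epiblast early, was at 250 and 158 CPM at 35 h and 170 and 209 CPM at 4 days, with overlapping values and no call (log2 -0.10 ± 0.31, adjusted p = 0.82). Otx2 was lower at 4 days in R1 and higher in CGR8, and the fitted log2 fold was 0.13 without R1 at 4 days and 0.32 without R1 at 35 h.

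Of 14 genes of the DNA methylation machinery, 3 were higher, 7 lower and 4 not called (median -0.39). Dnmt3l, the cofactor of the de novo methyltransferases without catalytic activity of its own, was at 597 and 469 CPM at 35 h and at 10.7 and 10.5 CPM at 4 days (49.8-fold lower, adjusted p = 1.2e-06). In L2i it was at 40.8 and 21.3 CPM, so the 35 h libraries lay above both the starting medium and the 4-day libraries. In the time course Dnmt3l was at 46.4, 713, 525 and 176 CPM on days 1 to 4, with its highest value on day 2. Of the de novo enzymes, Dnmt3b went from 1373 and 730 to 1998 and 2175 CPM (log2 1.01 ± 0.24, adjusted p = 0.0097), which was not called when CGR8 at 4 days (0.81) or at 35 h (0.55) was left out. Dnmt3a was at 512 and 284 CPM at 35 h and 305 and 376 CPM at 4 days, overlapped and was not called (log2 -0.21 ± 0.35, adjusted p = 0.67; 0.07 without R1 at 4 days and 0.29 without R1 at 35 h). Of the dioxygenases that oxidise methylated cytosine, Tet1 fell 4.73-fold from 887 and 1028 to 230 and 176 CPM. Tet2 fell 23.1-fold from 43.3 and 83.5 to 2.9 and 2.35 CPM. Zfp57, which guards methylation at imprinted loci, fell 12.3-fold from 379 and 548 to 41.2 and 33.1 CPM, and its partner Trim28 fell 1.9-fold.

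**Figure D3:**
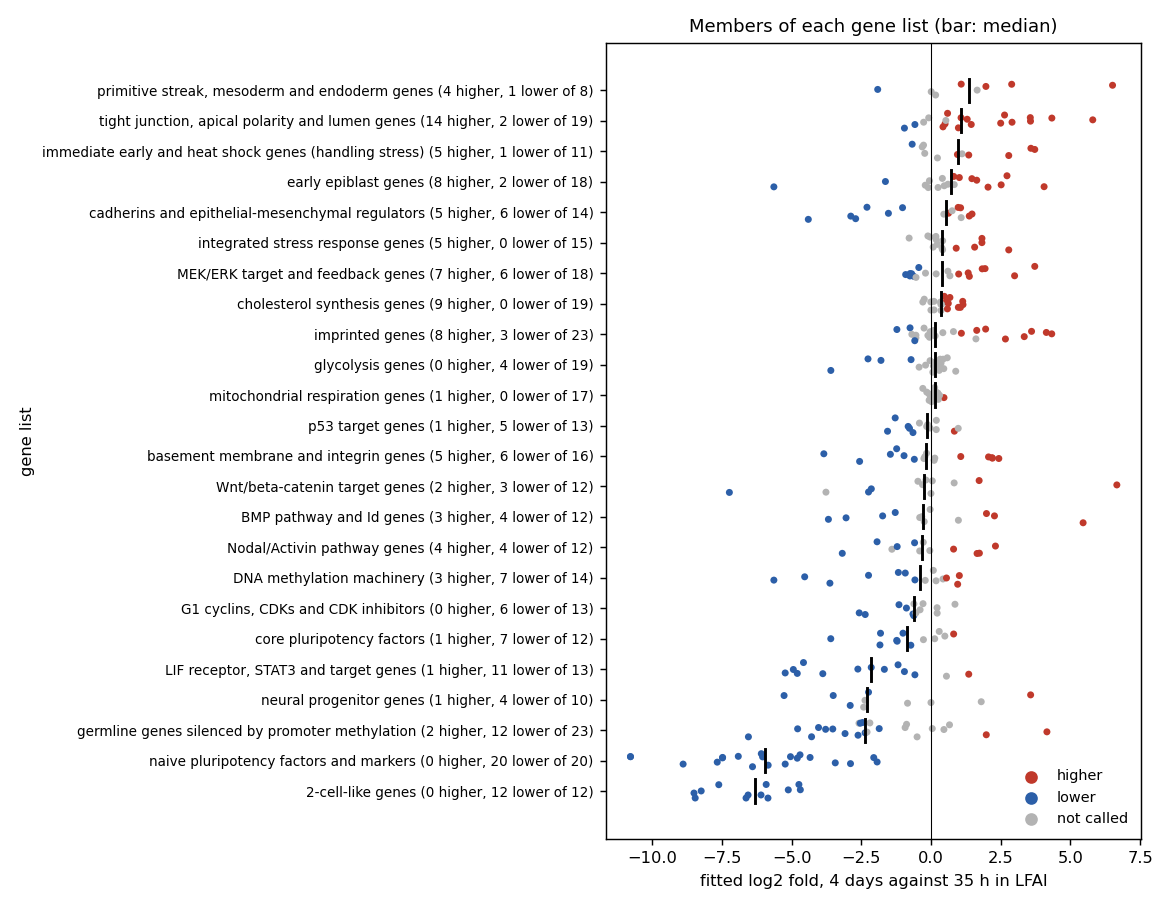
Each point is a member of 1 of the 24 gene lists, placed by its fitted log2 fold of 4 days against 35 h, red where called higher, blue where called lower and grey where not called, with the list median as a bar. Naive genes (median -5.94) and 2-cell-like genes (-6.33) lie far to the left, and genes of tight junctions, polarity and lumen (1.08) mostly to the right.

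LIF was in the medium throughout, and genes of its pathway were mostly lower. Of 13 listed, 11 were lower, 1 was higher and 1 was not called, at a median of -2.14. The list shares Klf4 and Tfcp2l1 with the naive list. Lifr, the receptor chain that binds LIF, fell 23.8-fold from 96.9 and 124 to 5.66 and 3.46 CPM (adjusted p = 3.4e-06), without overlap. Ifitm3, a membrane protein gene induced by LIF and interferon, fell 4.42-fold from 256 and 284 to 60.7 and 61.5 CPM.

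Targets of MEK and ERK went both ways: of 18, 7 were higher, 6 lower and 5 not called (median 0.39, or -0.03 without R1 at 4 days). The list median was 0.69 in R1 and -0.03 in CGR8. In the R1 time course 15 of the 18 rose from day 1 to day 4, while 13 fell from day 2. Of the 7 higher genes, all 7 rose there from day 1 and 4 from day 2. Of the 6 lower genes, 3 fell from day 1 and 5 from day 2. Dusp6, a phosphatase that acts on ERK, was at 51.7 and 58.1 CPM at 35 h and 164 and 120 CPM at 4 days (2.59-fold higher, adjusted p = 0.00061). Dusp4 rose 3.57-fold from 16.9 and 7.34 to 52.9 and 30.4 CPM, and Egr1, an immediate early factor, 13.2-fold from 2.35 and 2.53 to 39.8 and 25.7 CPM. Etv5, an ETS factor downstream of FGF, fell 1.88-fold from 768 and 780 to 442 and 382 CPM. None of these 4 genes had overlapping values between the times, as was so for 72.3% of all tested genes.

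Genes of the Nodal and Activin pathway were divided, with 4 higher, 4 lower and 4 not called of 12 tested of 14 (median -0.34). The higher and the lower share were each 33.33%, against 19.3% and 20.5% of all tested genes. The ligand gene Nodal went from 68 and 82.3 to 38.2 and 62.5 CPM (log2 -0.59 ± 0.21, adjusted p = 0.048), and this call was lost without R1 at 4 days (-0.27), R1 at 35 h (-0.68), CGR8 at 35 h (-0.53), R1 in LIM (-0.62) or CGR8 in LIM (-0.59), and without the replicate block (-0.58). Lefty1, an inhibitor induced by Nodal signalling, was at 352 and 361 CPM at 35 h and 89.1 and 180 CPM at 4 days and was not called (log2 -1.40 ± 0.64, adjusted p = 0.11). Its values did not overlap. The log2 value was -0.79 without R1 and -2.25 without CGR8 at 4 days, and it was called without R1 (-1.54) or CGR8 (-1.55) in L2i, with only the 4 libraries compared (-1.54), without a filter (-1.44) and with limma-voom (-1.50). In the time course Lefty1 instead increased from 80.8 CPM on day 1 to 549 CPM on day 4. Gdf3, a ligand of the same family, fell 3.83-fold, while Furin, a protease that matures Nodal, rose 3.33-fold from 17.6 and 17.8 to 70.9 and 48.7 CPM.

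With Wnt secretion blocked in all 4 cultures, 2 of 12 tested Wnt targets of 14 listed were higher and 3 lower (median -0.24). Notum, a secreted enzyme that inactivates Wnt ligands, went from 163 and 166 CPM to 1.39 and 0.784 CPM (150-fold lower, log2 -7.23 ± 0.23, adjusted p = 2.5e-07). In the time course it was at 108, 63.7, 12.3 and 4.22 CPM on days 1 to 4. Axin2, the common feedback target, fell 4.73-fold from 22.7 and 25.3 to 5.54 and 4.51 CPM and Tnfrsf19 4.41-fold. The Wnt target Cdx2 had no counts in any of the 4 libraries. Rnf43, which removes Wnt receptors, rose from no counts to 0.881 and 0.588 CPM (at least 7.56-fold), a call lost without CGR8 at 35 h (fitted log2 6.43, against 6.66 with all libraries, 5.90 without R1 and 7.44 without CGR8 at 4 days). The list median was -0.71 without R1 at 4 days.

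BMP pathway and Id genes had 3 higher and 4 lower of 12 tested of 14 (median -0.29). The ligand gene Bmp4 fell 12.8-fold from 9.46 and 23.2 to 1.26 and 1.11 CPM (adjusted p = 0.00026). Of the Id genes, inhibitors of bHLH factors, Id3 fell 3.33-fold from 18.1 and 25.9 to 8.81 and 4.38 CPM while Id2 rose 4.84-fold from 1.96 and 3.83 to 19.3 and 9.41 CPM. The log2 fold of Id3 was -2.44 without R1 at 4 days, and that of Id2 ranged from 1.61 without R1 at either time to 3.01 without CGR8 at 35 h.

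Of 19 genes of tight junctions, apical polarity and the lumen, 14 were higher, 2 lower and 3 not called, at a median of 1.08. Cldn7, a claudin that seals tight junctions, was at 3 and 1.75 CPM at 35 h and 135 and 126 CPM at 4 days (55.7-fold higher, adjusted p = 7.9e-06). Cldn6, the claudin typical of embryonic epithelia, rose 11.8-fold from 37.2 and 23.2 to 372 and 337 CPM. Crb3, which sets up the apical domain, rose 7.49-fold from 10.5 and 9.22 to 68.8 and 80.2 CPM, and Prom1, a protein of apical membrane protrusions, rose 20.1-fold from 2.67 and 3.31 to 58.5 and 62.3 CPM. For all 4 genes the lines were close to each other at 4 days and no value overlapped, as was so for 72.3% of all tested genes. Podxl, the sialomucin of the rosette lumen, went from 103 and 79 to 147 and 127 CPM (log2 0.59 ± 0.17, adjusted p = 0.021), and was no longer called without R1 at 4 days (0.48) or CGR8 at 35 h (0.38). Of these 14 higher genes, 13 were also higher on day 4 than on day 1 of the time course and 12 than on day 2. Of the whole list of 19, 14 rose there from day 1 and 13 from day 2.

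Of 14 cadherins and regulators of the switch between epithelium and mesenchyme, 5 were higher and 6 lower (median 0.54, with -0.21 in R1 and 0.32 in CGR8). Zeb1, a repressor of epithelial genes, fell 21.1-fold from 31.6 and 28.5 to 1.89 and 0.98 CPM. The intermediate filament gene Vim fell 4.92-fold from 329 and 409 to 90.1 and 58.5 CPM, and the matrix gene Fn1 7.35-fold from 1052 and 1331 to 199 and 125 CPM. Cdh2, N-cadherin, rose 2.77-fold from 5.48 and 4.03 to 17.8 and 9.41 CPM (adjusted p = 0.0014). Cdh1, E-cadherin, went from 882 and 638 to 1220 and 1115 CPM (log2 0.63 ± 0.16), a call lost without CGR8 at 4 days (0.61) or at 35 h (0.40). Basement membrane and integrin genes had 5 higher and 6 lower of 16 (median -0.19, with the median at 0.11 or 0.22 when single libraries were left out). Lamb1, a laminin chain, rose 4.6-fold from 41.4 and 45.8 to 199 and 202 CPM, Col4a1 4.18-fold and the integrin gene Itgb1 2.09-fold, while Nid1, which links laminin to collagen, fell 14.4-fold from 95.4 and 195 to 14.2 and 5.82 CPM (log2 -3.85 ± 0.43, with -4.75 without R1 and -3.16 without CGR8 at 4 days, -4.53 without R1 and -3.13 without CGR8 at 35 h).

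Genes of other lineages moved without a common direction. Of 8 tested of 14 genes of streak, mesoderm and endoderm, 4 were higher and 1 lower (median 1.37), and 1 of the 5 calls held without each library in turn. Wnt3, the ligand that starts the streak, had 1 count at 35 h and 4.34 and 2.88 CPM at 4 days, a ratio of 111 (95% counting interval 19.6 to 4437; fitted log2 6.51, 8.57 without R1 at 35 h and 5.89 without CGR8 at 35 h). T, the brachyury gene, was at 0.131 and 0.195 CPM at 35 h and 0.503 and 0.523 CPM at 4 days and was not called (adjusted p = 0.17). Of 10 tested of 14 neural genes, 1 was higher and 4 lower (median -2.31, or -0.12 without CGR8 at 35 h and -0.82 with limma-voom). Within the lines, with a prior count of 2, the list median was 0.0 in R1 and -1.34 in CGR8. In the R1 time course 5 of the 10 rose from day 1 to day 4 and 8 from day 2. Of the 4 lower genes, 2 fell there from day 1 and 1 from day 2. Nes, the neural filament gene nestin, rose 11.9-fold from 41.6 and 35.9 to 578 and 366 CPM, while Ncam1 fell 11.4-fold, Pax6 4.73-fold and Sox21 38.6-fold (log2 -5.27, or -4.61 without CGR8 at 35 h).

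Markers of cell types that such cultures could hold were summed in each library. For comparison with their counts of calls, 19.3% of all tested genes were higher and 20.5% lower. The 12 primitive endoderm markers summed to 7.83 and 7.85 CPM at 35 h and 9.94 and 6.60 CPM at 4 days, with Ttr at 0 in all 4 libraries, and 1 of 7 tested was higher and 2 lower (median -0.92). Within this sum Hnf4a went from 1.63 and 0.909 CPM to no counts (at least 13.2-fold lower; fitted log2 -7.43, -6.58 without R1 and -8.24 without CGR8 at 35 h) while Dab2 rose from 0.261 and 0.844 to 5.79 and 3.72 CPM (log2 3.05, 2.17 without R1 and 4.36 without CGR8 at 35 h). The 12 trophoblast markers summed to 53.5 and 64.2 CPM at 35 h and 420 and 153 CPM at 4 days, with 3 of 11 tested higher and 2 lower and Cdx2 at 0 in all 4. The keratin genes Krt8 and Krt18, which simple epithelia share, made up most of that sum at 4 days. Krt18 rose 21.6-fold from 6.91 and 3.25 to 156 and 68 CPM, and Krt8 rose 12.1-fold from 7.57 and 9.61 to 204 and 50.8 CPM (log2 3.60; 2.77 without R1 and 4.28 without CGR8 at 4 days, 2.79 without R1 and 4.43 without CGR8 at 35 h). Tfap2c, a trophoblast factor that naive cells share, fell 11.3-fold from 6.39 and 13.7 to 1.2 and 0.523 CPM (log2 -3.50; -4.35 without R1 and -2.91 without CGR8 at 4 days, -4.09 without R1 and -2.81 without CGR8 at 35 h). The 10 fibroblast and mesenchyme markers summed to 12.4 and 12.5 CPM at 35 h and 45.8 and 38.8 CPM at 4 days, with 2 of 6 tested higher, none lower, and S100a4, Postn and Lum at 0 in all 4. Fbn1, a microfibril protein, rose from 3.07 and 3.96 to 30 and 18.7 CPM and accounts for most of that change. Contractile genes such as Tagln rose beside these sums, and the part of such cells in the result was not tested.

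Germline genes that promoter methylation is known to silence were mostly lower. Of 23 listed, 12 were lower, 2 higher and 9 not called, at a median of -2.37. Hormad1, a protein of meiotic chromosome axes, was at 19.9 and 21.5 CPM at 35 h and 0.126 and 0.327 CPM at 4 days (93.7-fold lower, adjusted p = 1.4e-05). Stk31 fell 13.8-fold from 23 and 25.7 to 1.51 and 2.03 CPM, and Rpl10l, a testis copy of a ribosomal protein gene, 19.5-fold from 162 and 125 to 6.17 and 8.36 CPM. Syce1, of the synaptonemal complex, fell 5.15-fold from 19.9 and 28.8 to 3.46 and 6.21 CPM. Against these, Tdrd1, a tudor protein of the piRNA pathway, rose 17.8-fold from 0.522 and 0.455 to 8.24 and 9.28 CPM (named after its values were seen, as is Fkbp6 below). The time course did not show the fall: the list's median log2 change was 0.65 from day 1 to day 4 and 0.37 from day 2, and of the 12 lower genes 5 were lower on day 4 than on day 1 and 9 than on day 2. Hormad1 was there at 19.4, 37.8, 37.4 and 19.4 CPM on days 1 to 4.

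Germline promoters are known for the E-box CACGTG, which E2F6 complexes with MGA and MAX can bind, so the stretches before 4 of these genes are shown with CACGTG in capitals. They are 250 bases upstream of the start, 5′ to 3′, from RefSeq for GRCm38.p6: Hormad1 at chr3:95559427-95559676 (plus strand), Stk31 at chr6:49395354-49395603 (plus), Fkbp6 at chr5:135350045-135350294 (minus) and Tdrd1, which rose, at chr19:56825959-56826208 (plus).
Hormad1 promoter: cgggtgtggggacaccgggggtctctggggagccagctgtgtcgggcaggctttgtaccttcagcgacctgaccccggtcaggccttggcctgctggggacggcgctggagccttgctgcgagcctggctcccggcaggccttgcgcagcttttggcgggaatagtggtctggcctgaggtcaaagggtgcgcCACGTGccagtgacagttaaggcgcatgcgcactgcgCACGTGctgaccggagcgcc
Stk31 promoter: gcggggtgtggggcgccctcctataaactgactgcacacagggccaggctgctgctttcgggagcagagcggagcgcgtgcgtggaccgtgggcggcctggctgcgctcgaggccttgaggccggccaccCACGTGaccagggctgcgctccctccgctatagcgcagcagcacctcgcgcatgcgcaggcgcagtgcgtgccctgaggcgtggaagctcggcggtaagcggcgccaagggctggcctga
Fkbp6 promoter: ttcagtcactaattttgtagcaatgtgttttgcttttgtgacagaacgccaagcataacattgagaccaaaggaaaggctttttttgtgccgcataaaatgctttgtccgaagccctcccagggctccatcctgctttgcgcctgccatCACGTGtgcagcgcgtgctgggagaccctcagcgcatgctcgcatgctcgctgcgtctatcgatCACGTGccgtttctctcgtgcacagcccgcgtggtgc
Tdrd1 promoter: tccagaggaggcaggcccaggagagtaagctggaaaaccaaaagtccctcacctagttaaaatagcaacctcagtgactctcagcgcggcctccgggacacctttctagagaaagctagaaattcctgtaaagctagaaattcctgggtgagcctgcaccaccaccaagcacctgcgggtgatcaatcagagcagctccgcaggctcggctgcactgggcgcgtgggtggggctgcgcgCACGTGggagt
The palindrome CACGTG, which reads alike on both strands, stood in 13 of the 21 germline promoters in the table (61.9%) and in 8.37% of all 11260. Of the 13 genes with it, 5 were lower, 1 higher and 7 not called. Of the 8 without it, 5 were lower, 1 higher and 2 not called.

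Genes of the 2-cell-like state, a rare state of embryonic stem cells that resembles the 2-cell embryo, were lower in all 12 of 12 tested of 13 listed, with a median of -6.33 (-4.99 with genes without counts at their bound). Zscan4d, of a cluster known to mark that state, was at 2.94 and 30.7 CPM in R1 and CGR8 at 35 h and 0.189 and 0.261 CPM at 4 days (log2 -5.85 ± 0.74, adjusted p = 0.00028). The level at 35 h was much higher in CGR8: the listed genes summed to 14.0 CPM in R1 and 148 CPM in CGR8 at 35 h, and to 1.45 and 0.980 CPM at 4 days. Zscan4f went from 2.94 and 26.4 to 0.378 and 0.457 CPM and Zfp352 from 0.522 and 5.58 CPM to no counts (at least 31.8-fold lower). Of the 12 calls, 6 held without each library in turn, and the list median ranged from -7.93 without R1 to -4.32 without CGR8 at 4 days, with -4.98 without CGR8 and -6.97 without R1 at 35 h. Without R1 and without CGR8 at 4 days, and without CGR8 at 35 h, the log2 fold of Zscan4d was -6.65, -4.20 and -5.08, and that of Zscan4f (-4.69) was -5.58, -3.33 and -3.79. For Zfp352 (-8.50) it was -9.37 without R1 and -6.47 without CGR8 at 4 days. The genes are near-identical copies within families, so reads that fit several copies were not counted and single members are uncertain. In the time course the same 12 genes increased, all 12 from day 1 and all 12 from day 2 to day 4, by a median log2 of 2.76 from day 1 and 2.32 from day 2. Zscan4d was at 7.55, 17, 22.7 and 50.8 CPM on days 1 to 4, opposite to both lines. Promoters of members from 2 families are shown because both hold the letters of a TATA box, TATAAA, in capitals: Zscan4d at chr7:11166149-11166398 (minus strand) and Usp17lc at chr7:103416446-103416695 (plus), 250 bases upstream of the start in GRCm38.p6 from RefSeq.
Zscan4d promoter: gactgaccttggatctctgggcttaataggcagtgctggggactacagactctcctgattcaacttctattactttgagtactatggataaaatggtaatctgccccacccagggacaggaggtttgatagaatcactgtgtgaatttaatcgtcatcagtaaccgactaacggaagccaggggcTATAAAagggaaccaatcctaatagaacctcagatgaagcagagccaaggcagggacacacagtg
Usp17lc promoter: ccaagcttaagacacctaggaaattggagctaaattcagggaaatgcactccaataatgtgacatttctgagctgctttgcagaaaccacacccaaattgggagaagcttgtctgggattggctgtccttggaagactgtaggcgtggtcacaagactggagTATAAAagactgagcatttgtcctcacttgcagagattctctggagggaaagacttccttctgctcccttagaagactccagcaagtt
TATAAA on either strand stood in 6 of the 7 promoters of the list in the table and in 6.24% of all, and copies of a family share their sequence.

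Of 23 tested of 24 imprinted genes, 8 were higher, 3 lower and 12 not called (median 0.15). Grb10, an adaptor that limits growth signals, was at 105 and 80.9 CPM at 35 h and 601 and 563 CPM at 4 days (6.36-fold higher, adjusted p = 4e-05). Nnat, a small membrane protein gene, rose 17.6-fold from 4.3 and 0.714 to 79.4 and 13.9 CPM (log2 4.13, from 3.55 without R1 at 4 days to 4.75 without R1 at 35 h). Igf2, the fetal growth factor, rose 20.1-fold from 0.326 and 0.26 to 8.31 and 3.46 CPM (log2 4.33, or 3.39 without R1 at 35 h), and Sgce 10.2-fold. All 8 higher genes were also higher on day 4 than on day 1 and than on day 2 of the time course. Most of the list rose there whatever its call, 20 of the 23 tested genes from day 1 and 19 from day 2. The list's median log2 change from day 1 was 1.67.

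Of 19 glycolysis genes, none was higher and 4 were lower (median 0.14). That lower share, 21.05%, is near the 20.5% of all tested genes. Of 17 respiration genes 1 was higher and none lower (median 0.13). Both medians fell under 0 when single libraries were left out (lowest -0.02 and -0.10). Pfkp, a phosphofructokinase, fell 12.1-fold from 513 and 619 to 47.3 and 45.6 CPM (adjusted p = 4.8e-05). Hk1, a hexokinase, fell 3.47-fold and Pdk1, which holds pyruvate back from mitochondria, 4.79-fold from 292 and 269 to 53.5 and 68.7 CPM (log2 -2.26, or -1.65 without R1 at 35 h). Of 19 cholesterol synthesis genes, 9 were higher and none lower (median 0.37), and 3 of these calls held without each library in turn. Lss, which closes the sterol ring, rose 2.2-fold from 117 and 104 to 248 and 238 CPM, Pmvk 2.21-fold and Sc5d 2.08-fold. Each was without overlap, as were 72.3% of all tested genes. All 9 higher cholesterol genes were also higher on day 4 than on day 1 of the time course. Of the whole list of 19, 16 rose from day 1 and 19 from day 2, whatever their call.

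Of 13 G1 cyclins, CDKs and inhibitors, none was higher and 6 were lower (median -0.62). Ccnd3, cyclin D3, fell 2.22-fold from 179 and 211 to 97.2 and 77.6 CPM and Cdk2 1.84-fold from 213 and 213 to 116 and 115 CPM. The CDK inhibitor gene Cdkn2b fell 5.14-fold, and its neighbour Cdkn2a fell 5.96-fold from 27.9 and 28.7 to 7.62 and 2.22 CPM (log2 -2.58, from -3.67 without R1 to -1.90 without CGR8 at 4 days). Of 13 p53 targets, 1 was higher and 5 lower (median -0.16), with Trp53inp1 2.95-fold and Eda2r 2.44-fold lower. Of 15 integrated stress response genes, 5 were higher and none lower (median 0.39, or -0.04 and -0.07 without CGR8 at 4 days and at 35 h), and the list median stood at -0.17 in R1 and 0.96 in CGR8. In the R1 time course 2 of these 5 rose from day 1 to day 4, and 2 from day 2. Of the 15 genes, 10 fell there from day 1 and 12 from day 2 (median log2 change -0.19 and -0.50). Phgdh, the entry enzyme of serine synthesis, rose 3.55-fold from 100 and 49.4 to 244 and 262 CPM. Of 11 tested of 12 immediate early and heat shock genes, which handling of cells can raise, 5 were higher and 1 lower (median 0.95, or 0.25 without R1 at 4 days). Jun, the AP-1 subunit, rose 12-fold from 2.87 and 4.48 to 46.1 and 42.7 CPM, without overlap. The part of stress or handling in the results was not tested.

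The R1 time course gave separate libraries of 1 line on another coating. Of the 3004 genes called higher, 2466 (82.1%, Wilson 95% interval 80.7 to 83.4) were higher on day 4 than on day 1, where 50.2% of all tested genes were. From day 2 to day 4 it was 2656 (88.4%) against 50.7%. Of the 3175 called lower, 2493 (78.5%, 77.1 to 79.9) were lower on day 4 than on day 1, against 49.7% of all, and 2668 (84.0%) than on day 2, against 49.3%. The changes were smaller there: the median log2 change from day 1 was 0.65 for the higher genes and -0.64 for the lower ones, against fitted medians of 1.34 and -1.70. Genes are not replicates and each day has 1 library, so the intervals cover counting of genes only and no test was made. The naive list's median, on log2(CPM + 0.5), stood at -1.30 on day 2, -3.41 on day 3 and -3.57 on day 4, relative to day 1. All 20 naive genes were lower on day 4 than on day 1.

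**Figure D4:**
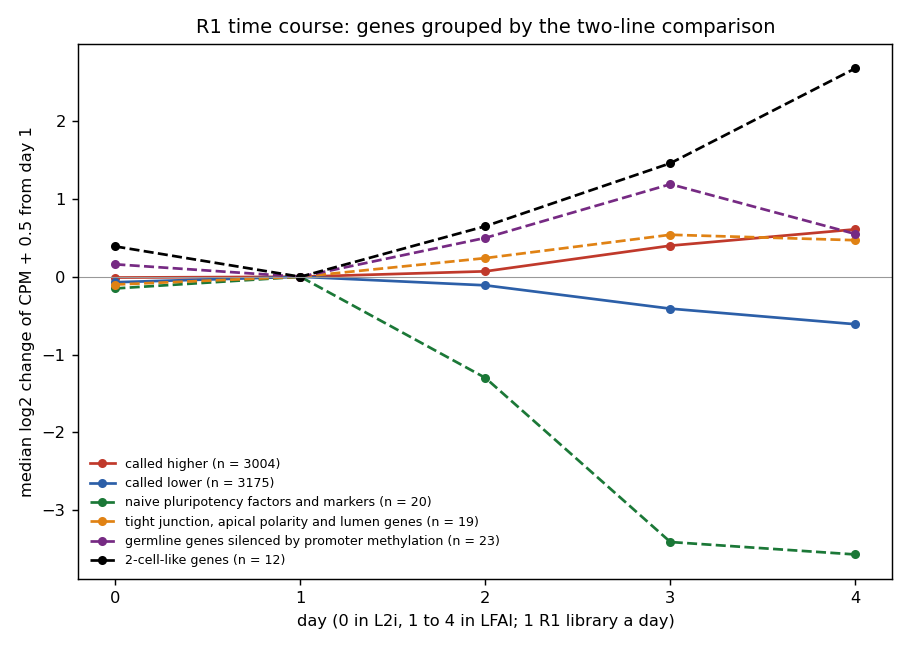
Lines join the median log2 change of CPM plus 0.5 from day 1 of the R1 time course (1 library a day, day 0 in L2i). They are drawn for the genes called higher or lower in the comparison of both lines and for gene lists. The lists hold all their tested members, whatever the call. Naive genes drop to -3.57 by day 4 and the called genes move to 0.61 and -0.61, while 2-cell-like genes climb to 2.68, opposite to their fall in both lines.

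No called gene moved opposite ways in R1 and CGR8, although 3119 of the tested genes (20.1%) did. Of the genes called lower, 3165 fell in both lines, and the other 10 had no counts in R1 at either time. An opposite move raises the error term of the test, so this count gives no independent support. Among autosomes, the median log2 ratio of 4 days over 35 h differed most between the lines on chromosome 8, where it was -0.18 in R1 and 0.13 in CGR8 over 794 tested genes. On chromosome Y it was -1.28 in R1 and -0.74 in CGR8, over 10 tested genes. Between R1 and CGR8 the median chromosome 8 gene differed by a log2 of 0.33 at 35 h, 0.35 in L2i and 0.25 in LIM, and by 0.07 at 4 days, where R1 was at its lowest passage. Medians of the other autosomes stayed between -0.12 and 0.04 in these 4 conditions. Zfp42 and Klf2 lie on chromosome 8. The part of this shift in the folds of genes on chromosome 8, the smaller folds among them, was not tested.

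**Figure D5:**
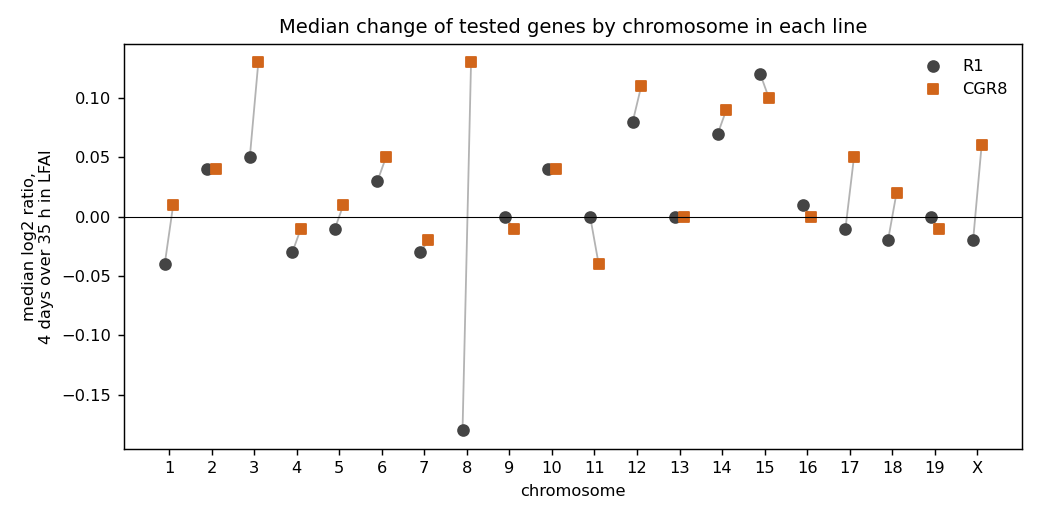
The median log2 ratio of 4 days over 35 h over the tested genes of each autosome and chromosome X is plotted for R1 (circles) and CGR8 (squares), joined by a line. Of the chromosomes drawn, the lines lie farthest apart on chromosome 8, at -0.18 in R1 and 0.13 in CGR8.

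CpG-rich promoters took a smaller share of the genes called lower than of those called higher, which is a description without a test. Of 2321 promoters of genes called lower, 53.8% were CpG-rich (observed over expected CpG above 0.6 in the 250 bases before the start), against 66.5% of 2301 promoters of genes called higher and 65.7% of all 11260. Above 0.75, the shares were 35.1%, 45.1% and 45.2%. By annotated class, 100 of 293 lincRNA genes were lower (34.1%) and 26 higher, while of 13801 protein-coding genes 2848 were lower (20.6%) and 2904 higher.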

How the data were processed

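Poly(A) RNA of 17 libraries was sequenced with a stranded kit, per the labels' protocols. The deposited values are raw counts of reads per gene; HISAT2 2.0.4, HTSeq 0.6.1, DESeq2 1.10.1 and GRCm38/mm10 are named in the submitters' processing notes, with no roles. The strand setting and annotation release are not given in the sources used here. Names came from GENCODE M21 for 47310 of 47729 IDs, and the 419 others held 0.0217% of the counts. Reads in lines that name no gene were 48.6% to 51.5% of the 4 libraries and were left out.

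Counts of 8 libraries (L2i, LIM and LFAI at 35 h and 4 days, R1 and CGR8) were fitted in edgeR 4.0.16 (R 4.3.3): TMM scaling (factors 0.964 to 1.033), filterByExpr by group, quasi-likelihood test with the line as block (3 residual degrees of freedom), Benjamini-Hochberg adjustment over 15525 genes, threshold 0.05. CPM were computed here from the deposited counts. The block is set by the cell line, which same-numbered samples share (the correlation of line deviations was 0.04 between 35 h and 4 days and 0.15 to 0.40 otherwise). No libraries were identical. P-values measure only the spread between these lines' samples, since separate cultures are not stated. The test was run on simulated data first. Alternatives were no block, 4 libraries only, DESeq2 size factors, no filter, DESeq2 1.42.0, limma-voom 3.58.1, edgeR's test against a log2 fold of 1, and fits that each drop 1 library.

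Named were the 10 largest rises and falls called in every leave-one-out fit and reaching a mean of 5 CPM, a panel of 24 genes, the 4 members with the lowest p in every list, and the 5 largest opposite moves. Results of 2 genes that these rules name are not reported here. The comparison, members and lists were chosen with earlier results of these data known, so list counts are descriptions and no list was tested as a set.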

Additional observations from a re-analysis of the deposited data

Results flagged for a closer look

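The tested genes with the largest opposite moves in R1 and CGR8 are given as log2 ratios of 4 days over 35 h, computed within each line with a prior count of 2. Each line has 1 library per time, so the difference between the lines was not tested, and none of these genes was called. Anxa1, an annexin gene, went from 5.02 to 16.0 CPM in R1 (1.65) and from 6.10 to 1.37 CPM in CGR8 (-2.06), a difference of 3.71. Slc38a4, an imprinted amino acid transporter gene, went from 25.4 to 60.9 CPM in R1 (1.26) and from 106 to 48.7 CPM in CGR8 (-1.11), a difference of 2.37. Plaur, the urokinase receptor gene, differed by 2.11, at 1.1 in R1 and -1.01 in CGR8. Mcc differed by 2.04, at 1.01 in R1 and -1.03 in CGR8. Dnajb4, a heat shock protein gene, differed by -2.0, at -0.99 in R1 and 1.01 in CGR8.

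Chromosome 8 was the autosome on which the lines parted: its median gene changed by -0.18 in R1 and 0.13 in CGR8, a difference of -0.31 that was not tested. Of its 794 tested genes, 208 moved opposite ways (26.2%), 171 of them lower in R1 and higher in CGR8 and 37 the reverse. The fitted median of these genes was -0.01, with 135 called higher and 164 lower. Any change in chromosome copies was not tested.

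The 2-cell-like genes fell in both lines but increased in the R1 time course by a median log2 of 2.76 from day 1 to day 4. The coating, the sequencing protocol and the culture all differ between these sets and cannot be told apart.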

How the results depend on the processing

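The counts of 3004 higher and 3175 lower genes were 2750 and 2957 without the replicate block (common CV 0.225 against 0.176), 2305 and 2646 with only the 4 libraries compared, 2943 and 3235 with DESeq2 size factors, 3040 and 3617 without a filter on low counts, 2904 and 3231 with DESeq2 and 3121 and 3179 with limma-voom. Against a log2 fold of 1 they were 1013 and 1377, a stricter question by construction. With single libraries left out the higher count ranged from 1702 to 2892 and the lower from 2118 to 3296. The share of calls that were higher was 48.6%, and 40.1% to 49.5% over the alternatives.

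Of 174 named genes, 157 were called, and 133 of them without each library in turn. None of the named called genes reversed, while among all called genes 1 did, without CGR8 at 4 days. Of the named calls, 5 were lost without the block, 5 with only the 4 libraries, 2 with DESeq2, 1 with limma-voom and 43 against a log2 fold of 1. Uncalled genes changed sign on the log2 scale. With single libraries left out Anxa1 ranged from -1.77 to 1.19, Dnajb4 from -0.77 to 0.71, Mcc from -0.82 to 0.72, Slc38a4 from -1.24 to 1.38, Plaur from -0.90 to 0.96, Dnmt3a from -0.68 to 0.29, Otx2 from -0.51 to 0.32 and Pou5f1 from -0.003 to 0.25. With only the 4 libraries Anxa1 was at -0.09, Dnajb4 at -0.03 and Mcc at -0.07. Without a filter Dnajb4 and Mcc were at -0.01 each, without the block Mcc was at -0.11 and Slc38a4 at -0.25, and with limma-voom they were at -0.10 and -0.21. The causes were not tested. Of 420 list medians under alternatives, 35 moved by more than the SD of both lines and 8 changed sign. Genes of few counts have fitted folds that move with single libraries.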

Other observations

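The 4 genes Tpm1, Myl9, Csrp1 and Flna, which belong to or associate with the actin cytoskeleton, were called higher at 4 days. They were picked after their values were seen, so they stand for no wider group. Tpm1, a tropomyosin that strengthens actin filaments, was at 76.7 and 63 CPM in R1 and CGR8 at 35 h and 740 and 582 CPM at 4 days (log2 3.24 ± 0.23). Myl9, a myosin light chain, went from 0.326 and 0.195 to 40 and 42.5 CPM (log2 7.29 ± 0.38), Csrp1 from 58.6 and 55.6 to 310 and 161 CPM and the filamin gene Flna from 712 and 818 to 2017 and 1474 CPM. In the R1 time course Tpm1 was at 97.2 CPM on day 1 and 80 CPM on day 4, Myl9 at 1.42 and 2.84 CPM and Csrp1 at 121 and 29.2 CPM. Kif1a, an axonal motor gene, was higher at the later time in both sets, from 1.89 and 1.3 to 337 and 315 CPM in the lines and, without a test, from 0.897 to 208 CPM from day 1 to day 4.

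Families chosen after their values were seen showed these counts, beside 19.3% of all tested genes called higher and 20.5% called lower. Being picked for their values, they stand for no wider group. Of 21 tested Platr genes, noncoding RNAs of pluripotent cells, 18 were lower and 1 (Platr22) was higher. Of 9 Xlr and 8 Nlrp genes, 7 and 6 were lower and none higher, and Xlr genes are near-identical copies. Of 10 Mcm genes, which include the replicative helicase, 6 were lower and none higher. Of 17 Klf genes, 9 were lower and 3 (Klf6, Klf7 and Klf14) were higher, and of 18 Kdm genes 9 were lower and 1 (Kdm8) was higher. Of 12 synaptotagmin genes (Syt), 7 were higher and none lower, and of 13 genes whose symbols start with Lrp, 7 were higher and none lower. Of 10 tested genes of chromosome Y, 7 were lower and none higher, among them Uba1y, from 19.1 and 20.5 to 0.881 and 1.11 CPM, and Ddx3y, from 109 and 97.1 to 59.4 and 45 CPM. Of 210 antisense genes, 52 were lower and 14 higher, and without the strand setting of the counting these cannot be told from their partners. Mybl2, a cell cycle factor, went from 1088 and 1083 to 139 and 149 CPM and Spp1, osteopontin, from 724 and 667 to 45.8 and 50 CPM.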
